A study of Mus musculus with 36 samples.

Results

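The Etv, Egr and Ier genes described here are 8 genes that are usually grouped as targets of the ERK kinases: Etv1, Etv4 and Etv5, Egr1, Egr2 and Egr3, and Ier2 and Ier3. They were chosen by name and not by a threshold, but with earlier results of these data known. All 8 were found among the 49671 genes of the count table. Levels are in CPM, which scales the reads on a gene to the library's total, computed with library sizes adjusted by the trimmed mean of M-values (TMM). RNA sequencing had been carried out on mouse embryonic stem cells (mESCs) that the labels give as 129m wt in every group. The cells were on StemBond hydrogels, which are polyacrylamide gels with tethered fibronectin, either soft or stiff, or on tissue culture plastic. Both hydrogels had a 24 h group, kept in serum + LIF, and 48 h groups in each of 4 media: serum alone, with LIF, with PD03, and with LIF and PD03 together. Plastic had a single 48 h group, kept in serum + LIF. LIF is a cytokine that sustains self-renewal, and PD03 is an inhibitor of MEK, the kinase that activates ERK. There were 36 libraries in 11 groups, with n = 6 for soft gels in serum + PD03 and n = 3 elsewhere. All groups had serum and came from 1 genetic background, so the levels describe that background only.

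ERK is the last kinase of a cascade that runs from growth factor receptors such as the FGF receptors through RAS, RAF and MEK. In mESCs, FGF4 made by the cells themselves keeps ERK active, and ERK activity moves the cells towards differentiation. Active ERK phosphorylates DNA-binding factors, among them the ternary complex factors that act with SRF, and so raises transcription of immediate early genes. Etv1, Etv4 and Etv5 encode the PEA3 subgroup of ETS transcription factors, which act downstream of FGF signalling. Egr1, Egr2 and Egr3 encode zinc finger transcription factors of the early growth response family. Ier2 and Ier3 encode immediate early response proteins without sequence similarity to these factors. The study asked whether substrate stiffness acts on ERK signalling, and these genes are usually grouped as targets of that pathway. Their RNA levels did not all respond to PD03 in the same way here, as described below.

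Total counts were between 10405696 and 26635239 per library. All 8 stem cell markers on a fixed list were above 1 CPM in every group, and their summed level was between 2595 and 4442 CPM per library. Summed fibroblast markers were between 25.4 and 99.5 CPM, and of the markers checked for other cell types none was at 0 in every library. Libraries had been sequenced in 3 pools. The pool identifiers placed all 24 h and plastic libraries in a single pool, so soft and stiff libraries at 24 h shared it. At 48 h nearly all stiff libraries were in another pool and nearly all soft libraries in the remaining pool, so that substrate and pool cannot be told apart there, whereas groups with and without PD03 on 1 substrate nearly all shared a pool. Because the labels do not say that libraries of a group came from separate cultures, p-values measure the spread between libraries, which may be technical.

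The members lay on 8 different chromosomes of GRCm38, all as protein-coding genes, and no other annotated gene overlapped any of them. In the GENCODE annotation of this build, Etv1 (ENSMUSG00000004151) occupied chr12:38779380-38870484 on the plus strand, Etv4 (ENSMUSG00000017724) chr11:101769742-101785371 on the minus strand and Etv5 (ENSMUSG00000013089) chr16:22381309-22439719 on the minus strand. Egr1 (ENSMUSG00000038418) has 2 exons, Egr2 (ENSMUSG00000037868) lay at chr10:67535475-67542188 and Egr3 (ENSMUSG00000033730) at chr14:70077203-70082614, all 3 on the plus strand. Ier2 (ENSMUSG00000053560) is a gene of 1 exon at chr8:84661331-84662852 on the minus strand, and Ier3 (ENSMUSG00000003541) has 2 exons at chr17:35821684-35822923 on the plus strand. Etv1 had the longest merged exons, 13296 bases against 1131 to 4484 bases for the other 7.

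RefSeq promoters on GRCm38.p6 were found for 4 of the 8 members: Etv1 with 2 start sites, Etv5 with 2, Egr2 with 5 and Ier3 with 1. For Etv4, Egr1, Egr3 and Ier2 no promoter was used here. The bases before a start site were searched on both strands for the CArG box, the site of SRF, for the ETS core CCGGAA, the EGR site GCGNGGGCG, the AP-1 site TGANTCA and the cyclic AMP response element TGACGTCA. Windows for 4 start sites are printed because they set a gene that fell under PD03, Etv1, and a gene that rose, Ier3, beside Egr2, of whose 5 windows 4 hold motifs of ERK-responsive factors. Positions count from the start site, with -1 as the last base before it, and capitals mark motif matches. The Etv1 window is chr12:38779832-38780081 and the Egr2 windows are chr10:67537316-67537565 and chr10:67537619-67537868. These 3 windows lie within the spans of their genes but outside annotated exons. The Ier3 window is chr17:35821463-35821683, directly before the gene, and all 4 windows are on the plus strand.
Etv1 before start site 1: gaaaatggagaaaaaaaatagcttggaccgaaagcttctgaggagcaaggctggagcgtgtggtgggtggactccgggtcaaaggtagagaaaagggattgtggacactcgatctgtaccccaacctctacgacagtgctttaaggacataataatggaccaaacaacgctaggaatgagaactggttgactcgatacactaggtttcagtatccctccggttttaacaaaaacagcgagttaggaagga
Egr2 before start site 2: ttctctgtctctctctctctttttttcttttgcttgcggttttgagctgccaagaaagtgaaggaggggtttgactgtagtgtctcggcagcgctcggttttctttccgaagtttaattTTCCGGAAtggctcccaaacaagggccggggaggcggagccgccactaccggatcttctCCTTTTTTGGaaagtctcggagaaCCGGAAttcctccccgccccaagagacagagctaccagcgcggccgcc
Egr2 before start site 3: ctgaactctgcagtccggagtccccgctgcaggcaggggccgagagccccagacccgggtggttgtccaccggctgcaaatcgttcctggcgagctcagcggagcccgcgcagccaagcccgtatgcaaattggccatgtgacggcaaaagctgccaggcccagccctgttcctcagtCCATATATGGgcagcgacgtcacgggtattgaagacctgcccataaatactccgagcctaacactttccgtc
Ier3 before start site 1: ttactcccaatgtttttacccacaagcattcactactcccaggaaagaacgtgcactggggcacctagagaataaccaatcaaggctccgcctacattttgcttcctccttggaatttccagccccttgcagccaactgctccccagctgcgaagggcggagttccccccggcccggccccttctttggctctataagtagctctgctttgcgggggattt
Egr2 had a CArG box at -72 to -63 before start site 2 and another at -72 to -63 before start site 3. The window before start site 2 also held the ETS core at 3 places, at -48 to -43 and, overlapping on opposite strands, at -131 to -126 and -129 to -124. The bases checked after start site 2 were in no GENCODE transcript of Egr2, whereas those after start site 3 were in at least 1. The windows of start sites 4 and 5 of Egr2 overlap that of start site 3 and share its CArG box. No motif on the list matched in the printed Etv1 and Ier3 windows, in the other Etv1 and Etv5 windows or before start site 1 of Egr2. Over 32851 promoters of 250 bases, 1.47% held a CArG box, 12% the ETS core, 4.70% the EGR site, 6.75% the AP-1 site and 1.55% the cyclic AMP response element. A match describes letters in the window and is not a measured site.

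Expressed per kilobase of merged exons, so that genes can be set side by side, the members spanned several orders of magnitude. On stiff gels at 48 h in serum + LIF, Etv5 had 94.9 CPM per kilobase, Etv4 29.1 and Ier2 28.8. Egr1 had 11 CPM per kilobase, Ier3 5.66 and Etv1 4.04. Egr2 and Egr3 were near the limit of detection at 0.169 and 0.103 CPM per kilobase, from 5 to 13 counts of Egr2 and 3 to 10 counts of Egr3 per library. Over all 36 libraries the counts were 3 to 22 for Egr2 and 0 to 17 for Egr3. All 8 members passed the filter on low counts, Egr2 and Egr3 included. With the longest transcript in place of merged exons, Etv1 moved above Ier3.

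**Figure D1:**
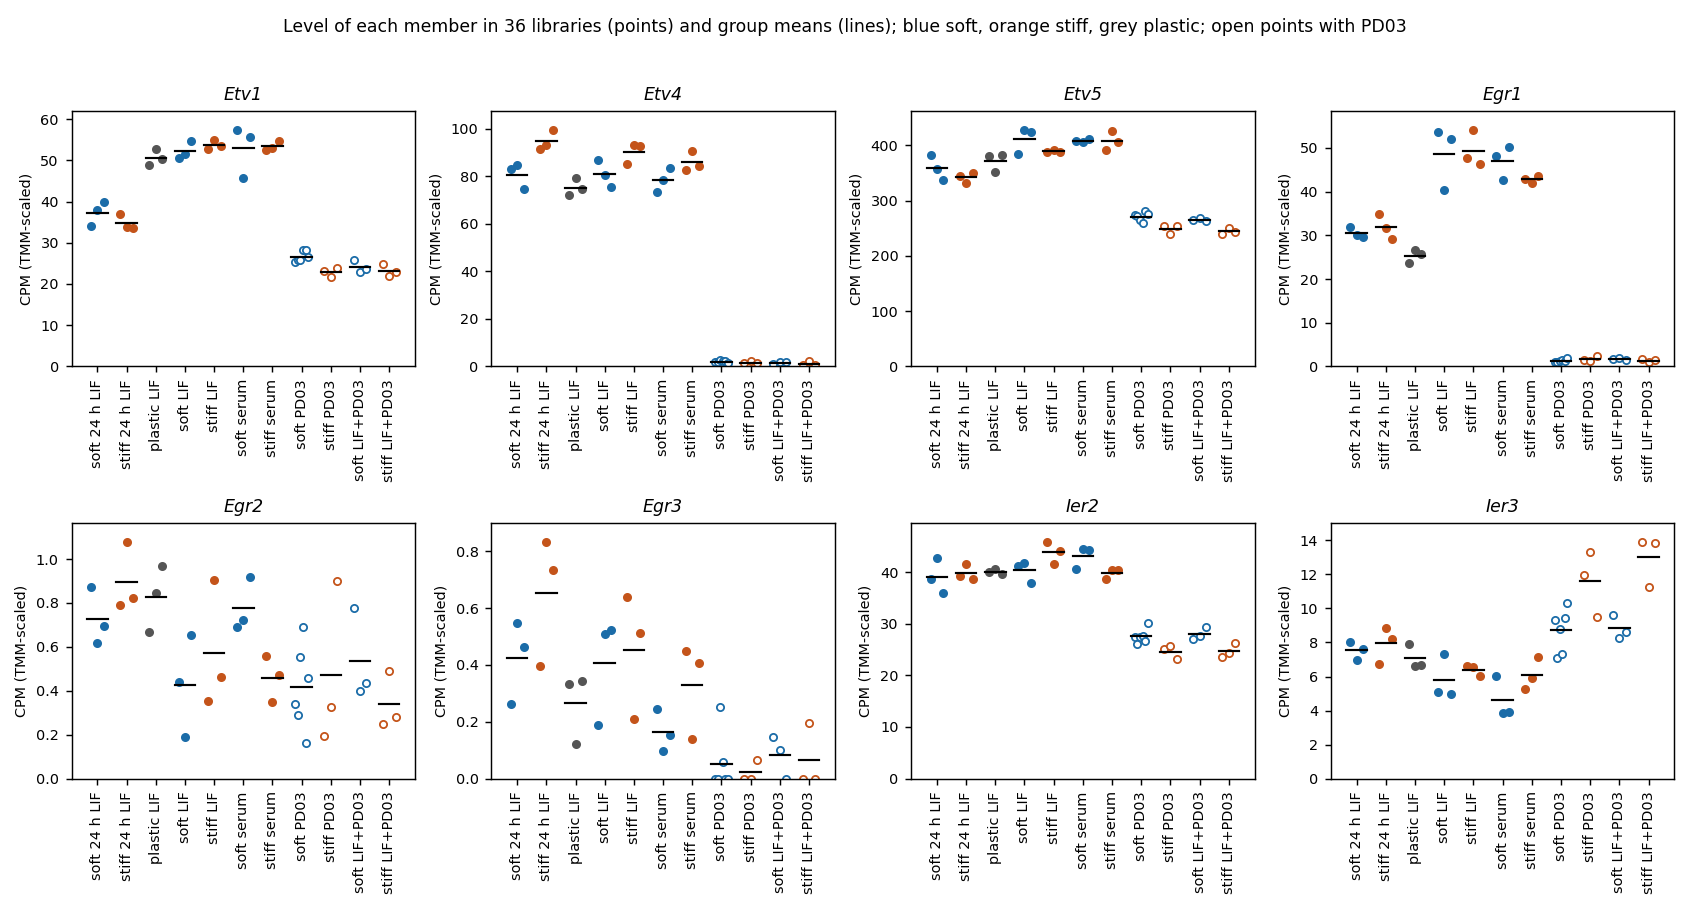
CPM of each member (vertical axis, a panel per gene, linear from 0) in all 36 libraries of the 11 groups, points for libraries and lines for group means, with blue for soft gels, orange for stiff gels, grey for plastic and open points for PD03. Etv4 and Egr1 drop to a few CPM in all groups with PD03, Etv1, Etv5 and Ier2 lie lower by less, and Ier3 lies higher there.

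For each member but Egr2, the 4 groups with PD03 lay at one end of the order of the 11 groups, and the order of the other 7 groups differed between members. For Etv1, Etv4, Etv5, Egr1 and Ier2 all 7 groups without PD03 ranked above all 4 groups with it, and the libraries of the neighbouring groups at that step did not overlap. How many of all tested genes separated without overlap, here or in the comparisons below, was not counted. For Ier3 the order was turned round, with the 4 PD03 groups on top, but each group overlapped the next one in the order. Neighbouring groups of Egr2 and Egr3 overlapped at every step. Within the groups without PD03, Etv4 had its highest mean on stiff gels at 24 h (94.7 ± 4.25 CPM, SD, n = 3) and its lowest on plastic (75.2 ± 3.63, n = 3), and all neighbours in that range overlapped. Egr1 stepped down between the 48 h gels, at 42.9 to 49.4 CPM, the 24 h gels, at 30.5 to 31.9 CPM, and plastic, at 25.4 ± 1.57 CPM, with no overlap at either step. Etv1 had 1 such step, between 50.6 ± 2.03 CPM on plastic and 37.3 ± 2.88 CPM on soft gels at 24 h.

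With PD03, 5 of the 8 members fell on both gels and in both media. Etv4 and Egr1 kept 1.30% to 3.77% of their level, Etv1 42.9% to 50.4%, and Etv5 and Ier2 56.3% to 69.4%. Ier3 rose in all 4 comparisons, Egr3 fell in 3, and Egr2 did not pass the test in any. Each comparison was fitted with edgeR's quasi-likelihood test over all 36 libraries, and p-values were adjusted by the Benjamini-Hochberg method over the 17702 genes that passed the filter. PD03 moved much of the transcriptome: 57.5% of tested genes passed the threshold of 0.05 on soft gels in serum, 55.8% on stiff gels in serum, 54.4% on soft gels in serum + LIF and 56.2% on stiff gels in serum + LIF. Against this background 6, 7, 7 and 7 of the 8 members were called, in that order. Of these, 5, 6, 6 and 6 were lower, where 28.5%, 27.4%, 26.6% and 27.8% of all tested genes were lower. The remaining 1 was higher each time, where 29%, 28.4%, 27.8% and 28.3% of tested genes were. The counts of 7 include Egr3, which failed the filter when only the groups compared were fitted. The members had been chosen with earlier results of these data known. The median log2 change over the 8 members was -0.93, -0.97, -0.87 and -1.02, and that over all tested genes lay between -0.01 and 0.01. In RNA from whole cultures, fewer cells that express a gene and less RNA per cell cannot be told apart.

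Etv4 was the member that PD03 lowered most. In serum the soft libraries without PD03 had 73.4, 78.5 and 83.5 CPM, and the 6 with PD03 ranged from 1.52 to 2.62 CPM with a median of 2.13. On stiff gels in serum the values were 82.6, 90.8 and 84.5 CPM without and 1.35, 2.21 and 1.35 CPM with PD03. In serum + LIF they were 86.7, 80.6 and 75.4 CPM against 1.21, 2.04 and 1.69 CPM on soft gels, and 85.0, 93.0 and 92.6 CPM against 0.695, 2.16 and 0.724 CPM on stiff gels. Every library with PD03 was thus far below every library without it. The log2 change of Etv4 (± SE) was -5.22 ± 0.10 on soft gels in serum (edgeR adjusted p = 7.2e-40), -5.64 ± 0.14 on stiff gels in serum (adjusted p = 6.17e-36), -5.62 ± 0.14 on soft gels in serum + LIF (adjusted p = 8.98e-36) and -6.27 ± 0.14 on stiff gels in serum + LIF (adjusted p = 2.62e-37). The level that remained was 2.68%, 2.01%, 2.04% and 1.30%. Library 2 on stiff gels in serum + LIF + PD03 held 44 counts of Etv4 where the other two held 14 and 18.

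Etv1, which without PD03 had the lowest level per kilobase of the PEA3 factors, fell by less than Etv4. Etv1 had 57.4, 45.7 and 55.7 CPM in soft serum libraries and 25.2 to 28.2 CPM, with a median of 26.2, in the 6 with PD03. On stiff gels in serum it had 52.6, 53.0 and 54.8 CPM without PD03 and 23.2, 21.8 and 24.0 CPM with it. The levels in serum + LIF were much the same, with 50.5, 51.4 and 54.6 CPM against 25.7, 22.9 and 23.6 CPM on soft gels. Stiff gels in serum + LIF gave 52.8, 54.8 and 53.5 CPM against 24.9, 21.9 and 22.8 CPM. The groups did not overlap in any of the 4 comparisons. The log2 change of Etv1 in the edgeR fit was -0.99 ± 0.06 (adjusted p = 5.26e-20, soft, serum), -1.22 ± 0.07 (4.55e-20, stiff, serum), -1.11 ± 0.07 (1.26e-18, soft, serum + LIF) and -1.21 ± 0.07 (3.56e-20, stiff, serum + LIF).

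Etv5, the most abundant member, kept most of its RNA. It had 409, 406 and 411 CPM in soft serum libraries and between 259 and 282 CPM, with a median of 273, in the 6 with PD03. In stiff serum libraries it had 391, 426 and 406 CPM without PD03 and 254, 240 and 254 CPM with it. In serum + LIF it had 385, 428 and 424 CPM against 266, 268 and 264 CPM on soft gels, and 388, 392 and 388 CPM against 239, 251 and 243 CPM on stiff gels. No groups overlapped. The log2 change of Etv5 in the edgeR fit was -0.59 ± 0.04 (adjusted p = 1.82e-18, soft, serum), -0.71 ± 0.05 (1.34e-18, stiff, serum), -0.63 ± 0.05 (8.97e-17, soft, serum + LIF) and -0.67 ± 0.05 (1.02e-17, stiff, serum + LIF). The 3 PEA3 factors, which share a DNA-binding domain, thus kept 1.30% to 2.68%, 42.9% to 50.4% and 61.1% to 66.4% of their levels in the order Etv4, Etv1, Etv5.

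**Figure D2:**
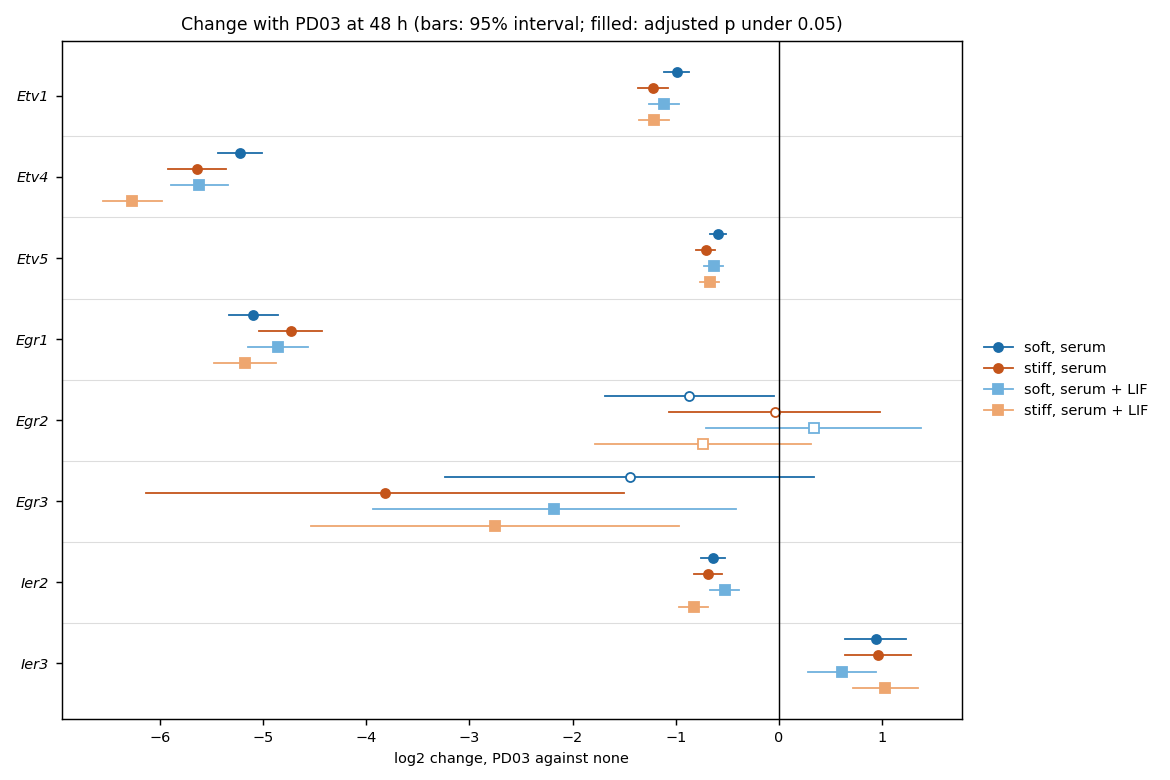
Log2 change of each member with PD03 against the same medium without it, on soft and stiff gels, in serum and in serum + LIF, as points with 95% confidence intervals of the edgeR fit, filled where the adjusted p is under 0.05. Etv4 and Egr1 sit between -4.73 and -6.27, Etv1, Etv5 and Ier2 between -0.53 and -1.22, Ier3 between 0.61 and 1.03, and the intervals of Egr2 and Egr3 are wide.

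Among the EGR genes, Egr1 lost nearly all of its RNA under PD03, and the other two were too scarce for a firm reading. Egr1, the family member most often used as an immediate early readout of ERK, had 48.2, 42.6 and 50.3 CPM on soft gels in serum and 0.968 to 2.03 CPM, with a median of 1.2, in the 6 libraries with PD03. On stiff gels in serum it had 43.0, 41.9 and 43.7 CPM without PD03 and 1.54, 1.19 and 2.31 CPM with it. In serum + LIF it had 53.7, 40.3 and 52.1 CPM against 1.60, 1.94 and 1.47 CPM on soft gels. Stiff gels in serum + LIF gave 47.7, 54.1 and 46.4 CPM against 1.74, 0.934 and 1.41 CPM. No library with PD03 came near the lowest library without it. The log2 change of Egr1 in the edgeR fit was -5.09 ± 0.12 (adjusted p = 5.9e-37, soft, serum), -4.73 ± 0.15 (3.17e-31, stiff, serum), -4.85 ± 0.15 (3.86e-32, soft, serum + LIF) and -5.17 ± 0.15 (4.11e-33, stiff, serum + LIF), and 2.77% to 3.77% of the level remained.

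Egr3 was read from very few counts. The 3 libraries without PD03 held 5, 2 and 3 counts on soft gels in serum and 12, 2 and 6 on stiff gels in serum, against 0, 0, 5, 1, 0 and 0 and against 0, 0 and 1 with PD03. In serum + LIF they held 3, 8 and 8 counts on soft gels and 9, 3 and 10 on stiff gels, against 3, 2 and 0 and against 0, 4 and 0 with PD03. The 9 libraries without a count of Egr3 were all libraries with PD03. Summed over libraries and scaled to their sizes, Egr3 with PD03 was at 34.3% of its level without PD03 on soft gels in serum (exact 95% counting interval 10.2% to 104%), 5.03% on stiff gels in serum (0.121% to 31.4%), 21% on soft gels in serum + LIF (6.11% to 58.0%) and 13.4% on stiff gels in serum + LIF (3.35% to 39.3%). These intervals cover counting error only. The edgeR test called Egr3 lower in the last 3 of these comparisons (adjusted p = 0.00411, 0.0318 and 0.00698) and not on soft gels in serum (adjusted p = 0.165). It was tested because it passed the low-count filter over all 36 libraries. With only the groups compared in the fit, Egr3 failed the filter in each of these comparisons and gave no value. Single libraries decided some of the calls in the full fit. Without library 3 of the soft serum + PD03 group, which held 5 of its 6 counts, the adjusted p was 0.0107 and Egr3 was called. In serum + LIF the call on soft gels was lost without library 2 or 3 with PD03 (adjusted p = 0.0595 and 0.129) or without library 2 or 3 lacking it (0.0946 and 0.0943), and the call on stiff gels was lost without library 3 with PD03 (0.0571).

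Egr2, a factor known from hindbrain patterning and myelination, was between 0.164 and 1.1 CPM in all libraries. With PD03 its summed level was 54.7% of that without it on soft gels in serum (exact 95% counting interval 35.5% to 84.1%), 93.1% on stiff gels in serum (51.8% to 167%), 127% on soft gels in serum + LIF (70.7% to 235%) and 59.8% on stiff gels in serum + LIF (32.5% to 109%). Soft serum libraries had 0.691, 0.721 and 0.918 CPM and the 6 with PD03 0.164 to 0.690 CPM, which did not overlap, but the log2 change of -0.87 ± 0.41 did not pass the test (edgeR adjusted p = 0.0642). Without library 4 of the soft serum + PD03 group it was -1.06 with an adjusted p of 0.0308. In the other 3 comparisons the adjusted p was 0.953, 0.613 and 0.236, so a change of Egr2 was not detectable at this depth.

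The Ier genes moved in opposite directions. Ier2, an immediate early gene that encodes a nuclear protein, had 40.6, 44.4 and 44.3 CPM on soft gels in serum and 26.1 to 30.2 CPM, with a median of 27.4, in the 6 libraries with PD03. In stiff serum libraries it had 38.6, 40.4 and 40.5 CPM against 25, 25.6 and 23.2 CPM. In serum + LIF it had 41.3, 41.8 and 38.0 CPM against 27.1, 27.6 and 29.4 CPM on soft gels and 45.9, 41.7 and 44.2 CPM against 23.5, 24.3 and 26.2 CPM on stiff gels. Each library with PD03 was below each library without it. The log2 change of Ier2 in the edgeR fit was -0.64 ± 0.06 (adjusted p = 4.32e-14, soft, serum), -0.69 ± 0.07 (2.49e-12, stiff, serum), -0.53 ± 0.07 (3.29e-09, soft, serum + LIF) and -0.83 ± 0.07 (3.28e-15, stiff, serum + LIF).

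Ier3, which encodes a protein linked to cell survival and stress responses, was higher with PD03. It had 6.02, 3.84 and 3.93 CPM on soft gels in serum and 7.07 to 10.3 CPM, with a median of 9.07, in the 6 libraries with PD03. On stiff gels in serum it had 5.27, 5.89 and 7.18 CPM without PD03 and 12, 13.3 and 9.51 CPM with it. In serum + LIF it had 5.08, 7.30 and 4.97 CPM against 9.61, 8.27 and 8.61 CPM on soft gels and 6.61, 6.54 and 6.04 CPM against 13.9, 11.3 and 13.8 CPM on stiff gels. Again the groups did not overlap, with the PD03 libraries now on top. The log2 change was 0.94 ± 0.15 (adjusted p = 2.96e-07, soft, serum), 0.96 ± 0.16 (1.01e-06, stiff, serum), 0.61 ± 0.17 (0.00151, soft, serum + LIF) and 1.03 ± 0.16 (1.62e-07, stiff, serum + LIF) in the edgeR fit. PD03 thus brought Ier3 to 153% to 204% of its level. With the sequencing pool as a further term, in each of the 45 ways in which libraries could have been spread over the pools, the calls of Etv1, Etv4, Etv5, Egr1, Ier2 and Ier3 were kept in all 4 comparisons.

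Markers of other cell types also moved with PD03. The 7 trophoblast markers summed to 64.2 to 110 CPM per library without PD03 and to 229 to 365 CPM with it, and 7, 7, 7 and 6 of them were called higher in the 4 comparisons, in the order soft serum, stiff serum, soft serum + LIF and stiff serum + LIF. The 7 primitive endoderm markers summed to 46.3 to 70.2 CPM without and 83.1 to 141 CPM with PD03, but in the same order 3, 2, 3 and 4 of them were called lower and 1, 2, 1 and 2 higher. Among them the adaptor gene Dab2 rose by 1.61 to 2.31 on the log2 scale, while the transcription factor genes Sox7, at -2.18 to -2.54, and Foxa2, at -0.94 to -1.11, were lower in all 4 comparisons. Fibroblast markers summed to 51.9 to 57.3 CPM without and 74.7 to 84.2 CPM with PD03 on stiff gels in serum, and to 35.8 to 43.6 CPM and 92.8 to 99.5 CPM on stiff gels in serum + LIF. On soft gels they summed to 25.4 to 32.9 CPM without and 34 to 48.9 CPM with PD03. Of the 7 fibroblast markers tested, 4, 4, 3 and 4 were called higher, with Col1a1 at 0.99 to 1.81, and 2 lower each time. The 5 mesoderm markers went from 11.2 to 20.4 CPM down to 4.07 to 5.56 CPM. Of them T and Eomes were called lower in all 4 comparisons, Mixl1 and Tbx6 in none, and Mesp1 was not tested. The 4 neuroectoderm markers went from 33.6 to 58.0 CPM down to 11.9 to 16.9 CPM. Pax6 was lower in all 4 comparisons, Sox1 in all but soft serum (-0.02), Zic1 only on stiff gels in serum + LIF, and Neurog2 was not tested. The 8 stem cell markers summed to 2595 to 3271 CPM without and 3780 to 4442 CPM with PD03. Except for fibroblast markers, the sums without PD03 include the 24 h and plastic libraries. No marker of these lists was at 0 in all libraries. The part of these shifts in the changes of the members was not tested.

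Other genes known to be induced by ERK were set beside the members, from a list chosen with earlier results of these data known. Of 20 such genes, which hold no member, 13 were lower and 4 higher in each of the 4 PD03 comparisons, and the median log2 change of the 20 was between -0.88 and -0.98. The 3 with the largest drops on soft gels in serum were feedback inhibitors of the pathway. Spry4, a Sprouty protein, had log2 changes of -6.77 to -7.82. Spred1, which holds back RAF activation, had changes of -3.20 to -3.38, and Dusp6, the ERK phosphatase, of -2.74 to -3.15. Myc, a growth-promoting transcription factor, followed with -2.63 to -2.94. Etv4 and Egr1 therefore ranked behind Spry4 and ahead of Spred1. Genes that rose, named here after their values were seen, were the AP-1 family members Atf3, by 1.36 to 1.74, and Jun, by 0.91 to 1.48, and the antiproliferative gene Btg2, by 0.77 to 0.87. Nr4a1 was the fourth, by 0.20 to 0.30, except on stiff gels in serum + LIF, where it was Zfp36, by 0.21. Ier3, with 0.61 to 1.03, lay among these.

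**Figure D3:**
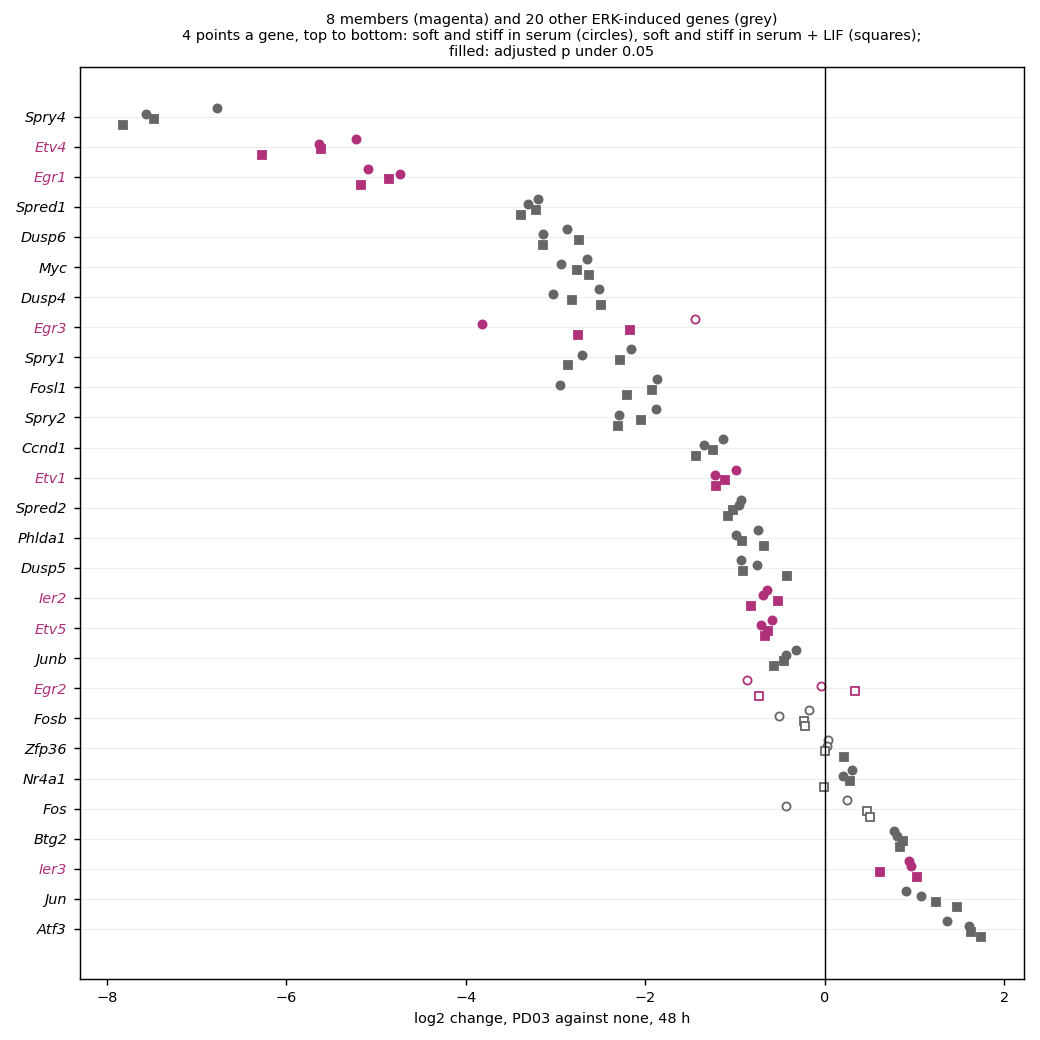
Log2 change with PD03 (horizontal axis) of the 8 members (magenta) and 20 other ERK-induced genes (grey), a row per gene ordered by change, with a point for each gel in serum (circles) and in serum + LIF (squares), filled where the adjusted p is under 0.05. Spry4, Etv4 and Egr1 lie farthest to the left, and Ier3 lies with Btg2, Jun and Atf3 to the right of 0 in all 4 comparisons.

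Genes upstream of the members moved less and in both directions. Of 23 genes of the cascade from FGF4 to the RSK kinases, 10 or 11 were higher and 6 to 8 lower with PD03, with medians between -0.003 and 0.06. Those among the 4 largest changes in at least 1 of the 4 comparisons were Fgf4, the ligand, with 1.1 to 1.34, the scaffold Ksr1 with 1.11 to 1.15, the receptor Fgfr1 with 0.88 to 0.92 and the kinase Rps6ka3 with 0.69 to 0.91, while Braf had -0.72 to -0.86 and Nras -0.72 to -0.85. Among the 7 factors that carry the signal to immediate early genes, Elk3 and Creb1 were lower in all 4 comparisons, with log2 changes of -0.92 to -1.43 and -0.31 to -0.46, and Elk1 rose by 0.38 to 0.44 and Srf by 0.22 to 0.42. Of 13 other ETS genes, 12 passed the filter, and 7 or 8 were higher and 1 to 3 lower. Spic rose by 4.09 to 4.78, Elf4 by 1.76 to 1.81 and Ets2 by 1.36 to 1.5, while Etv2 was lower with -0.62 to -0.84. The 12 tested genes of this ETS list thus had a positive median, between 0.32 and 0.46, where the 3 PEA3 factors all fell. The list leaves out Elk1, Elk3 and Elk4. Of those, Elk3 fell and Elk1 rose in all 4 comparisons, and Elk4 had 0.14 to 0.25.

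Of 10 relatives and regulators of the members, 4 or 5 were higher and 2 or 3 lower with PD03. Nab2, a corepressor that binds EGR proteins and is itself an EGR target, rose by 1.44 to 1.67, and Atxn1 and Cic, which together repress Etv1, Etv4 and Etv5, rose by 0.78 to 1.1 and by 0.51 to 0.73. Ier5l rose by 0.52 to 0.83. Det1 and Cop1, parts of a ubiquitin ligase that degrades ETV proteins, were lower with -0.44 to -0.69 and -0.23 to -0.40. Of 8 genes of heat shock and handling stress, 2 or 3 were higher and 2 or 3 lower, with Gadd45a at -1.57 to -2.04 and Ddit3 at 0.71 to 1.03.

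Stiffness, the variable of the study, moved the members far less. Without PD03 none of the 8 members passed the test between soft and stiff gels in any single medium and time. The edgeR count was 0 of 8 at 24 h in serum + LIF, where 3.55% of tested genes were called and 1 member, Etv4, had an unadjusted p under 0.05. It was 0 of 8 at 48 h in serum, where 4.85% were called and 1 member, Ier3, had an unadjusted p under 0.05, and 0 of 8 at 48 h in serum + LIF, where 0.780% were called and no member was under 0.05. Of the 17702 tested genes, 2611, 2778 and 1929 were under an unadjusted p of 0.05 in these comparisons, in that order. DESeq2 gave 1, 0 and 0 members. For Egr1 the log2 difference, soft minus stiff, averaged over these 3 strata was 0.02 with a 95% confidence interval from -0.10 to 0.13. For Etv1 it was 0.02 (-0.06 to 0.10), and for Ier2 -0.01 (-0.09 to 0.07). These intervals are narrow beside the changes of the same genes under PD03.

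Etv4 was the only member called in the average over the 3 strata without PD03, lower on soft gels. At 24 h it had 82.9, 84.7 and 74.5 CPM on soft and 91.5, 93.1 and 99.5 CPM on stiff gels in serum + LIF, and these did not overlap. The log2 difference was -0.23 ± 0.08 (95% confidence interval -0.40 to -0.07), with an edgeR adjusted p of 0.116. At 48 h it was -0.13 ± 0.08 in serum and -0.16 ± 0.08 in serum + LIF, with overlapping libraries in both. Averaged over the 3 strata the difference was -0.17 ± 0.05 (-0.27 to -0.08, adjusted p = 0.0125), against a background of 8.71% of tested genes called. The call was lost without library 3 of soft gels at 24 h (adjusted p = 0.0544), library 3 of soft gels at 48 h in serum + LIF (0.053) or library 1 of soft gels in serum (0.0551). With pool as a term it was kept in 0 of the 45 assignments, and the difference ranged from -0.53 to 0.09. At 24 h, where soft and stiff libraries shared the pool, DESeq2 did call Etv4.

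**Figure D4:**
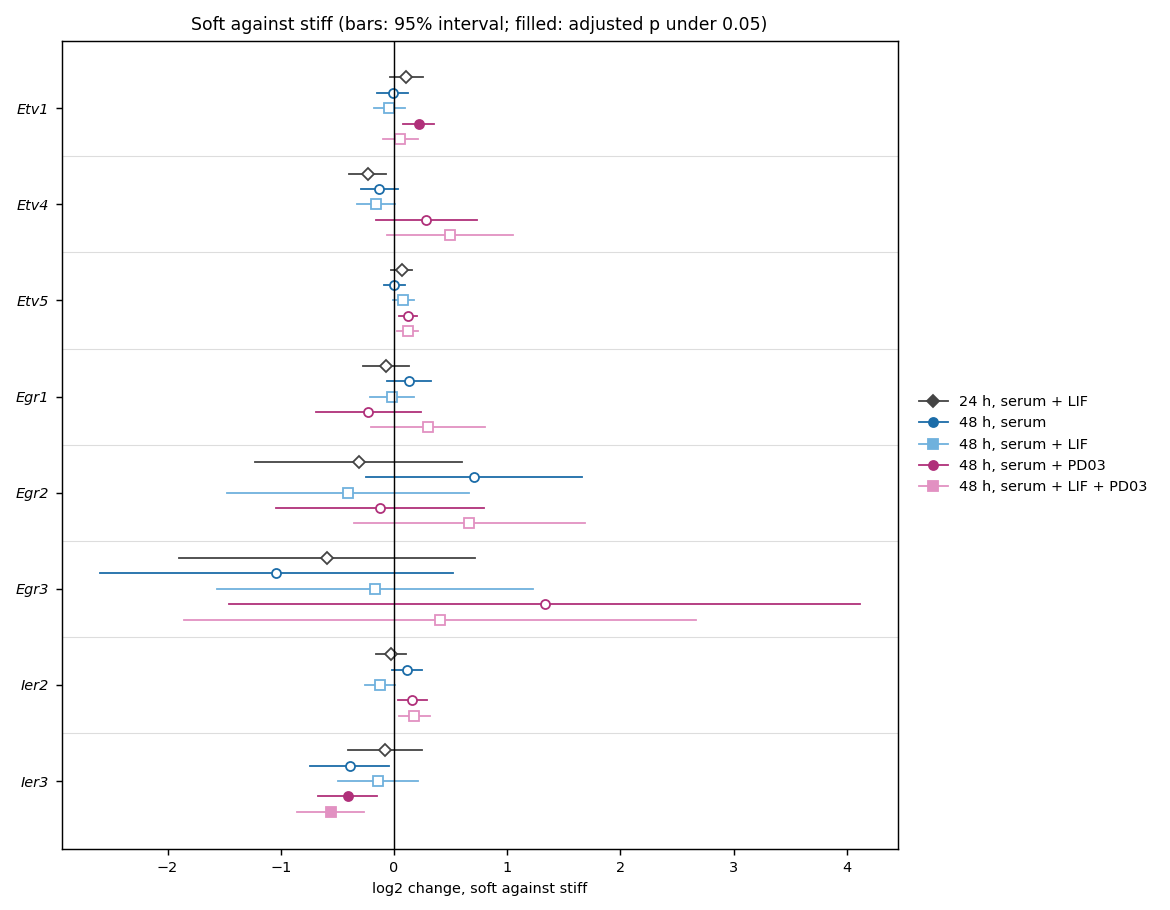
Log2 difference between soft and stiff gels (soft minus stiff) of each member in the 5 combinations of time and medium, points with 95% confidence intervals of the edgeR fit, filled where the adjusted p is under 0.05. Most intervals of the abundant members cross 0 without PD03, and with PD03 the intervals of Ier3 lie below 0 and those of Etv5 and Ier2 above it.

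With PD03, small differences were called for several members. In serum + PD03, 2 of 8 members were called where 5.55% of tested genes were. Etv1 had 25.2 to 28.2 CPM on soft against 23.2, 21.8 and 24.0 CPM on stiff gels without overlap (0.22 ± 0.07, adjusted p = 0.0431), and Ier3 had 7.07 to 10.3 CPM against 12, 13.3 and 9.51 CPM with overlap (-0.41 ± 0.13, adjusted p = 0.0499). Both calls were close to the threshold. Leaving out each of the 9 libraries in turn, Etv1 lost its call in 6 cases (adjusted p up to 0.274) and Ier3 in 7 (up to 0.378), and with pool as a term each was kept in 3 of 45 assignments. In serum + LIF + PD03, 1 of 8 was called where 7.61% of tested genes were. Ier3 had 9.61, 8.27 and 8.61 CPM on soft against 13.9, 11.3 and 13.8 CPM on stiff gels, which did not overlap (-0.56 ± 0.15, adjusted p = 0.00974). This call was lost without library 1 or 3 of the stiff group (adjusted p = 0.0513 and 0.0568) or library 2 of the soft group (0.057), and was kept in 6 of 45 pool assignments. Etv4 in this medium was called only without library 2 of the stiff group, its library of 44 counts (1.2, adjusted p = 0.0064, against 0.49 and 0.335 with it).

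Averaged over both media with PD03, Etv5 was 0.12 ± 0.03 on the log2 scale higher (adjusted p = 0.00402), Ier2 0.17 ± 0.05 higher (0.00677) and Ier3 0.48 ± 0.10 lower (0.000253) on soft gels, so that 3 of 8 members were called where 14.8% of tested genes were. Pool as a term kept these calls in 0, 6 and 12 of the 45 assignments. Etv4 had 0.39 ± 0.18 and was not called (adjusted p = 0.141), but was called without library 2 of stiff gels in serum + LIF + PD03 (0.74, adjusted p = 0.00222) or library 2 of stiff gels in serum + PD03 (0.57, adjusted p = 0.0451). Etv1, at 0.14 ± 0.05 (0.0603), was called without library 1 of stiff gels in serum + LIF + PD03 (0.0477). Egr1 differed by 0.03 with an interval from -0.31 to 0.38. Cell type markers differed in the same comparison: 8 of 8 stem cell markers were called higher on soft gels, and 6 of 7 trophoblast, 4 of 7 fibroblast and 2 of 7 primitive endoderm markers lower. Krt7 and Hand1, trophoblast markers, had -0.82 and -0.80, and Dab2 and Gata6, of the endoderm list, -0.40 and -0.37. Summed trophoblast markers were at 229 to 265 CPM on soft and 294 to 365 CPM on stiff gels with PD03, and fibroblast markers at 34 to 48.9 CPM and 74.7 to 99.5 CPM. The part of these differences in the values of the members was not tested.

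Whether the effect of PD03 differed between soft and stiff gels was tested by the interaction itself. The edgeR test called 0 of 8 members in serum, in serum + LIF and over the average of both, where 0.797%, 1.07% and 1.78% of tested genes were called, and 1, 2 and 3 members had an unadjusted p under 0.05. The largest was Etv4, with an average interaction of 0.53 ± 0.19 (95% confidence interval 0.16 to 0.91, adjusted p = 0.152), where a positive value is a smaller drop on soft gels. DESeq2 called this 1 member on the average (0.54, adjusted p = 0.0268) and no member in either medium alone. Without library 2 of stiff gels in serum + LIF + PD03 the edgeR interaction of Etv4 was 0.88 (adjusted p = 0.00327). Ier2 had 0.30 ± 0.10 in serum + LIF (adjusted p = 0.148) and Etv1 0.23 ± 0.10 in serum (0.305). The interactions of stiffness with LIF and with time called 0 of 8 members each, where 0.0847% and 0.254% of tested genes were called. Under an unadjusted p of 0.05 there were 1719 and 1853 of the 17702 tested genes, and 1 and 0 members. DESeq2 called 0 in both.

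Some other ERK-induced genes were called between soft and stiff gels without PD03. At 24 h, 7 of the 20 were called lower on soft gels, where 2.52% of all tested genes were lower. They were led by Phlda1 (-0.51), the phosphatase gene Dusp4 (-0.45), Jun (-0.44) and Dusp5 (-0.42). At 48 h, 5 were lower in serum, namely Dusp4, Phlda1, Spry1, Jun and Myc at -0.70 to -0.20. There 2.77% of tested genes were lower. In serum + LIF 1 was lower, Jun (-0.50), where 0.333% of tested genes were. Jun was itself among the genes that rose with PD03. These counts are from the fit without pool, and at 48 h substrate and pool cannot be told apart. With pool as a term, 858 calls over all genes in serum became 173 to 384. In serum + LIF, 138 became 0 to 41. Stem cell markers were called in the other direction in the same comparisons: 5, 6 and 0 of 8 were higher on soft gels. Trophoblast markers were called lower in 3, 3 and 0 of 7 and higher in 0, 1 and 0, and fibroblast markers in 1, 2 and 1 of the 7 that passed the filter. Pax6 of the neuroectoderm list was called higher on soft gels at 48 h in serum (0.43) and in serum + LIF (0.40). Dab2 of the endoderm list was called lower on soft gels at 24 h (-0.39). The part of these shifts in the values of the members was not tested.

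Egr1 was higher on both gels than on plastic, and higher at 48 h than at 24 h. In serum + LIF at 48 h, Egr1 had 23.6, 26.7 and 25.8 CPM on plastic, 53.7, 40.3 and 52.1 CPM on soft gels and 47.7, 54.1 and 46.4 CPM on stiff gels. Both gels were above plastic without overlap, by 0.94 ± 0.10 on soft (1.92-fold, edgeR adjusted p = 4.42e-10) and 0.96 ± 0.10 on stiff gels (1.95-fold, adjusted p = 5.96e-10) on the log2 scale. The comparisons share the plastic libraries, and 11.8% and 5.54% of tested genes were called in them. On soft gels Etv5 was also called, with 385, 428 and 424 CPM against 381, 351 and 383 CPM (0.15 ± 0.05, adjusted p = 0.0248), which made 2 of 8 members. The call of Etv5 was lost without library 2 of plastic (0.161) or library 2 or 3 of soft gels (0.161 and 0.0629). On stiff gels Egr1 was the 1 member called, and Etv4 was not called, with 85.0, 93.0 and 92.6 CPM against 72.0, 79.2 and 74.4 CPM (0.26 ± 0.08, adjusted p = 0.0502). Markers moved with these comparisons too. Fibroblast markers summed to 73.7 to 85.6 CPM on plastic, 28.4 to 32.9 CPM on soft and 35.8 to 43.6 CPM on stiff gels, and 3 of 7 were called lower and 1 higher on each gel. Of 7 primitive endoderm markers, 3 were called higher on soft gels, and 4 higher and 1 lower on stiff gels. Gata6 had 1.12 and 0.93, and Gata4 and Pdgfra were also higher on both. Trophoblast markers were lower in 3 and 1 of 7 and higher in 1 and 0, and stem cell markers higher in 6 and 2 of 8. Of the mesoderm and neuroectoderm lists, T (0.96) and Pax6 (0.36) were higher on soft gels, and Sox1 was lower on soft (-0.37) and stiff gels (-0.52). Whether the values of the members moved with these markers was not tested.

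Between 24 h and 48 h in serum + LIF, 3 of 8 members were called on each gel, all higher at 48 h, where 24.4% of tested genes were called on soft and 25.6% on stiff gels and 12.9% and 12.6% were higher. On soft gels 53.1% of the genes called were higher, and 32.4% with scaling by total count. Egr1 had 31.9, 30.1 and 29.6 CPM at 24 h on soft and 34.9, 31.6 and 29.3 CPM on stiff gels, which is below all 48 h libraries listed above. It rose by 0.68 ± 0.10 on soft (edgeR adjusted p = 8.26e-07) and 0.63 ± 0.10 on stiff gels (1.45e-06). Etv1 had 34.1, 37.9 and 39.8 CPM on soft and 36.9, 33.9 and 33.5 CPM on stiff gels at 24 h and rose by 0.48 ± 0.07 (1.1e-06) and 0.63 ± 0.07 (7.71e-10). Etv5 had 382, 357 and 338 CPM and 344, 333 and 350 CPM at 24 h and rose by 0.20 ± 0.05 (0.000895) and 0.19 ± 0.05 (0.00166). The intervals for Etv4 were -0.16 to 0.18 and -0.23 to 0.09, so a change of the size seen in Egr1 or Etv1 lies outside them. Egr2, Egr3, Ier2 and Ier3 were not called. Over the same interval trophoblast markers went from 89.4 to 91.9 CPM to 67.0 to 82.4 CPM on soft gels and from 107 to 110 CPM to 73.8 to 84.6 CPM on stiff gels, with 2 and 3 of 7 called lower. Fibroblast markers went from 54.6 to 61.8 CPM to 35.8 to 43.6 CPM on stiff gels, where 2 of 7 were lower and 1 higher, and had 1 lower and 1 higher on soft gels. Pdgfra of the endoderm list rose on both gels, by 1.35 and 0.73, while Dab2 of that list was higher on soft (0.38) and lower on stiff gels (-0.27). Of the mesoderm list, T (0.99) and Mixl1 (0.90) were higher on soft gels and Eomes (-0.42) lower on stiff gels. Of the 8 stem cell markers 3 were higher and 2 lower on soft and 4 higher on stiff gels. The part of these markers in the changes of the members was not tested.

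Sequencing pool bears on these comparisons, since the plastic and 24 h libraries shared a pool that holds at most 1 of the 48 h gel libraries compared with them. With pool as a term, Egr1 on stiff gels was called in 45 of 45 assignments against plastic (0.87 to 1.1) and against 24 h (0.54 to 0.76). On soft gels it was called in 9 of 45 against plastic (0.31 to 1.80) and in 7 of 45 against 24 h (0.05 to 1.54). The rise of Etv1 with time was kept in 45 of 45 assignments on stiff gels (0.60 to 0.66) and in 14 on soft gels (0.35 to 0.65), and that of Etv5 in 15 and 0. The other ERK-induced genes are described from the fit without pool only. On stiff gels 13 of 20 were called lower and 1 higher at 48 h, where 13% of tested genes were lower. On soft gels 10 were lower and 4 higher, where 11.4% of tested genes were lower. The largest drop on soft gels was that of Atf3 (-1.60) and on stiff gels that of Phlda1 (-1.44), and Spred1 rose on both (0.52 and 0.32). With pool as a term, 4315 calls over all genes on soft gels became 345 to 813.

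No member was called with LIF. The edgeR test called 0 of 8 members in each of the 4 comparisons with and without LIF, where 0.0169% of tested genes were called on soft gels in serum, 1.41% on stiff gels in serum, 0.107% on soft gels in serum + PD03 and 0.514% on stiff gels in serum + PD03. At an unadjusted p under 0.05 the counts of members were 0, 2, 1 and 1, and those of all 17702 tested genes 1345, 2032, 1430 and 1533. DESeq2 called 0 members in each. On stiff gels without PD03, Egr1 had 47.7, 54.1 and 46.4 CPM with LIF and 43.0, 41.9 and 43.7 CPM without it, which did not overlap (0.20 ± 0.10, adjusted p = 0.398). On soft gels the same difference was 0.05 with an interval from -0.14 to 0.24. The intervals for Etv5 with and without LIF were -0.08 to 0.11 on soft and -0.16 to 0.03 on stiff gels, and those for Etv1 -0.16 to 0.12 and -0.13 to 0.15. Etv4 on stiff gels with PD03 had 0.695, 2.16 and 0.724 CPM with LIF and 1.35, 2.21 and 1.35 CPM without (-0.56 ± 0.28, adjusted p = 0.576), and was called without library 2 of the group with LIF (-1.27, adjusted p = 0.0407). The interactions of LIF with PD03 called 0 of 8 members on soft and on stiff gels, where 0.0226% and 1.09% of tested genes were called. Under an unadjusted p of 0.05 there were 1301 and 1757 of the 17702 tested genes, and 0 and 1 members. DESeq2 called 0 members in both. Without library 2 of stiff gels in serum + LIF + PD03, Etv4 was called on stiff gels (-1.32, adjusted p = 0.016).

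Among the members, those that fell together under PD03 did not all move together elsewhere. Because libraries with and without PD03 form 2 separate clusters, correlations between members are given over the means of the 7 groups without PD03, as descriptions. These groups share pools and, at 24 h and on plastic, the medium. Pearson's r was 0.89 between Etv1 and Etv5 and 0.77 between Etv5 and Egr1, but 0.23 between Etv4 and Egr1 and -0.37 between Etv1 and Etv4. Ier3 had negative values with Etv5 (-0.86), Egr1 (-0.72) and Etv1 (-0.72), and 0.37 with Etv4.

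Likeness to other genes was measured by Pearson's r over all 11 group means for 13788 genes with a mean of at least 1 CPM, so that the gap between groups with and without PD03 carries most of it. The genes nearest to Etv4 were Robo4, Zfp423 and Myrf, each at 0.999, and those nearest to Egr1 were Slc7a7 (0.997), Tmem237 and Surf2. Etv1 was nearest to Ola1 (0.997), Zbed5 and Cdca7l, and Etv5 to Slc20a2, Armt1 and Zmynd19. Ier2 was nearest to Ddx39b and Dus3l, both at 0.993, and Msantd2, and Ier3 to Ptgs2 (0.983), Plat and Ap2b1. For Egr3 the nearest was Ppp1r11 (0.982), followed by 4921507P07Rik and Elof1, and for Egr2 it was Ptprv (0.896), followed by Stx1a and Fem1a. Such values are common here: 1975 to 2321 genes were above 0.9 with Etv1, Etv4, Etv5, Egr1 and Ier2, 597 with Egr3, 339 with Ier3 and 0 with Egr2.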

How the data were processed

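The authors aligned reads of the mESC libraries, made with a NuGen kit per the labels, to mm10 (GRCm38) with STAR 2.5.2a, counted them per Ensembl gene with htseq-count and deposited raw counts, whole numbers per gene and library with no normalisation. The strand setting of the counting was not given in the sources used here. The table held 49671 genes, 13380 of them without a count in any library, and every row named a gene.

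Columns carried group names only, so libraries were assigned to groups, and a library number is its column order. To look for libraries deposited more than once, the counts of each of the 45 pairs of a group were compared, and chi-square per gene was 2.22 to 13.4, above sampling noise. The filter filterByExpr kept 17702 genes with 99.92% of counts. A quasi-likelihood model in edgeR 4.0.16 (R 4.3.3) with 1 coefficient per group, TMM scaling and no covariate used all libraries. Each comparison was a contrast, with Benjamini-Hochberg adjustment over all tested genes and a threshold of 0.05. Log2 changes are given with the SE of the fit, and soft was always set against stiff. CPM was computed here from the deposited counts. The fit was tested on simulated counts for soft against stiff gels at 48 h in serum + LIF (16697 genes): 60.0% of changes of 0.5 and 84.0% of changes of 1 on the log2 scale were recovered, with 3.36% false calls. Changes were placed only in genes above 1 CPM, and no difference between pools was simulated. All groups were given 1 baseline, and the spread followed the trend fitted to these data, with no spread particular to a gene. The rates therefore do not cover Egr2 and Egr3, genes whose spread departs from the trend, or calls that pool could affect.

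Alternatives were DESeq2 1.42.0, other size factors, no filter, fewer groups in the fit, each library left out, sequencing pool as a term in its 45 possible assignments and, chosen after seeing the data, scaling by total count. The members and the gene and marker lists were chosen with earlier results of these data known. All members were named, and for a list up to 4 genes with the largest changes past the threshold and at least 1 CPM. The most alike genes were the 3 with the highest Pearson's r over group means. Gene positions came from GENCODE M21, and promoters from RefSeq on GRCm38.p6.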

Additional observations from a re-analysis of the deposited data

Results flagged for a closer look

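The Egr3 level of library 3 on soft gels in serum + PD03 stood apart from the other 5 libraries of its group. It was 0.252 CPM, from 5 counts, while the next highest library had 0.0575 CPM and the other 4 had no count. Its gap to the next library was 0.771 of the range of the group, above the limit of 0.625 for 6 libraries. This group was the only one with enough libraries for such a check. The highest and lowest library were checked for each of the 8 members, 16 checks in all, so a flag can arise by chance. The limit assumes normally distributed values, which a group with 4 libraries at 0 does not have, so the chance rate is not known here. With this library Egr3 was not called between serum + PD03 and serum on soft gels (adjusted p = 0.165), and without it the log2 change was -3.22 (edgeR adjusted p = 0.0107).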

How the results depend on the processing

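The calls and directions under PD03 of Etv1, Etv4, Etv5, Egr1, Ier2 and Ier3 were kept under every alternative, and the counts of members called per comparison stayed within 1.5 times except as follows. Between soft and stiff gels at 24 h, 1 member (Etv4) in place of 0 was called without a filter, by DESeq2 and with only the groups compared in the fit. In serum + PD03, 1 in place of 2 was called with RLE scaling, without a filter, with scaling by total count and with only the groups compared, and 0 to 1 with pool as a term. With pool as a term the count went down to 0 in serum + LIF + PD03 (from 1), to 0 in every assignment for the mean without PD03 (from 1), to 0 to 1 for the mean with PD03 (from 3), to 0 to 1 for soft gels against plastic (from 2) and down to 0 for 48 h against 24 h on soft gels (from 3). For the mean without PD03, the pool term turned the difference of Etv4 from -0.17 to as much as 0.087. Soft gels against plastic gave 1 with only the groups compared. Stiff gels against plastic gave 2 in place of 1 (Egr1 and Etv4) without a filter, with scaling by total count, by DESeq2 and with only the groups compared. The mean interaction of stiffness with PD03 gave 1 in place of 0 (Etv4) without a filter and by DESeq2. Why these counts moved was not tested.

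Leaving out each library in turn gave 6 to 7 members called with PD03 on soft gels in serum, 7 to 7 on stiff gels in serum and 6 to 7 on both gels in serum + LIF. Between soft and stiff gels it gave 0 to 0 at 24 h, 0 to 1 in serum, 0 to 0 in serum + LIF, 0 to 2 in serum + PD03, 0 to 2 in serum + LIF + PD03, 0 to 1 for the mean without PD03 and 3 to 4 for the mean with it. Ier3 was the member called in serum, without library 1 of soft gels (-0.63, adjusted p = 0.048), and Etv5 was called in serum + PD03 without library 4 of soft gels (adjusted p = 0.0471). With LIF it gave 0 to 0, and 0 to 1 on stiff gels with PD03. Against plastic it gave 1 to 2 on soft and 1 to 1 on stiff gels, and with time 3 to 4 on soft, where Ier3 was called without library 2 of the 48 h group (-0.58, adjusted p = 0.0241), and 3 to 3 on stiff gels. The interactions gave 0 to 1 for stiffness with PD03 in serum + LIF and in the mean and for LIF with PD03 on stiff gels, and 0 to 0 for the others. Each of these calls was of Etv4 without library 2 of stiff gels in serum + LIF + PD03.

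Over all genes, the numbers called between soft and stiff gels at 48 h and for the means changed most with pool as a term, from 858 to 173 to 384 in serum, from 138 to 0 to 41 in serum + LIF, from 982 to as few as 276 in serum + PD03, from 1348 to 246 to 724 in serum + LIF + PD03, and from 1541 to 340 to 651 and 2620 to 422 to 1099 for the means without and with PD03. They went from 2083 to 126 to 445 and 981 to 225 to 431 for soft and stiff gels against plastic, and from 4315 to 345 to 813 and 4535 to 2219 to 2431 with time. In serum + LIF, 266 genes were called without a filter, 242 by DESeq2 and 81 with only the groups compared. For LIF on soft gels in serum, 3 became 46 without a filter and 36 by DESeq2. Between soft and stiff gels, scaling by total count moved the share of higher genes at 24 h from 29% to 43.1%. For the 48 h gels in serum alone it went from 42.9% to 56.8%, with LIF from 57.2% to 43.9% and with PD03 from 38.4% to 26.1%. It moved it from 45% to 61.1% and 35.2% to 64.5% for soft and stiff gels against plastic, from 53.1% to 32.4% with time on soft gels, from 50.6% to 63.5% and 57.1% to 45.7% for LIF on stiff gels without and with PD03, and from 51.1% to 23.1% and 61.1% to 44.2% for the interactions of PD03 with stiffness in serum and with LIF on stiff gels, and moved no group's level by over 0.06 on the log2 scale. No paired analysis was possible because the columns carry no replicate number. Egr2 and Egr3 failed the filter in most fits of only the groups compared and then gave no value. Few counts limit Egr2 and Egr3 at this depth.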
